A study of Mus musculus with 8 samples.

Results

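The proteasome subunits are the genes of the large protease that degrades ubiquitin-tagged proteins, read here in mouse skin on single-colour microarrays. The list holds 42 genes, taken by name: 7 alpha and 7 beta subunits of the core, 3 immunoproteasome beta subunits, the core assembly factor Pomp, 6 ATPases, 3 further base subunits, 8 lid subunits, 3 base chaperones and 4 activators. All 42 had a named probe and were tested among 17737 genes. No gene entered or left the list for its value, but the list was proposed with the difference between the groups already known. Counts and medians over the list are therefore a description. The series compared 4 DTG skins with 4 Control skins, and Musashi1, a protein that binds RNA, is the overexpressed gene in its title. The labels do not spell out DTG, and the strain, the age, the alleles and the promoter or cell type driving any transgene are not given in the sources used here. The source of all samples was whole skin, and all 8 samples are labelled male. Whether each skin came from an animal of its own is not stated, so a p-value here covers the variation among these 8 samples and some of that may be technical.

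The proteasome has a barrel-shaped core, whose outer rings are built of alpha subunits and whose inner rings are built of beta subunits, and a regulatory particle that caps it. Of the beta subunits, Psmb5, Psmb6 and Psmb7 carry the active sites that cut peptide bonds. Under interferon-gamma, and constantly in many immune cells, they are replaced by Psmb8, Psmb9 and Psmb10, and the resulting immunoproteasome makes peptides suited to display on MHC class I molecules. The regulatory particle binds ubiquitin chains, removes them and threads the protein into the core with a ring of ATPases. When degradation falls short, the transcription factor NRF1, product of Nfe2l1, raises the transcription of subunit genes through antioxidant response elements. In skin, most keratinocytes and fibroblasts carry the constitutive form, and resident leukocytes carry much of the immunoproteasome.

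Levels are log2 signals relative to the 75th percentile of each array, so 0 is that percentile and 1 unit is a doubling of signal. A difference is the DTG mean minus the Control mean on this scale, given with the standard error (SE) of the limma fit, and a gene was called where its adjusted p was below 0.05. Adjusted p-values come from limma with Benjamini-Hochberg adjustment over all 17737 genes. Of the spots, 68.8 to 71.6% lay above background on DTG arrays and 79.5 to 85.1% on Control arrays. Before scaling, negative controls averaged 4.27 to 4.69 log2 units on DTG arrays and 2.40 to 3.29 on Control arrays. On that unscaled log2 scale the 75th percentile of the arrays was 11.7 to 12.1. The brighter probe of Msi1 read 3.85 to 4.16 on the 3 DTG arrays with a usable spot, against -5.92 to -1.48 on the Control arrays. The other probe of Msi1 read -3.36 to -3.03 on DTG arrays and -3.36 to -2.80 on Control arrays, and its groups overlapped. On the single slide, row 2 held the DTG arrays and row 1 the Control arrays, so an effect of the row cannot be told apart from the group. Xist, which female cells express, was high on DTG arrays 1, 3 and 4 and Control arrays 2 and 4, against the male label. It was low on DTG array 2 and Control arrays 1 and 3. The Y-linked gene Eif2s3y ran the other way, at 1.22 to 1.66 on these 3 arrays and -7.79 to -6.18 on the others. All tested genes had a median difference of -0.15, and 35.5% of them lay above 0.

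Most proteasome genes read slightly higher in DTG skin relative to the other genes on the array, and the 3 immunoproteasome subunits read lower. Of the 42 genes, 14 were called higher, where 11.1% of all tested genes were, and 4 were called lower, where 21.3% were. Over both directions 18 of 42 were called, beside 32.4% of all genes. The median difference of the list was 0.17, and its range ran between -0.62 (Psmb9) and 1.89 (Psmd14). In 33 genes the difference was above 0, and in 36 it was above the median of all genes. The DTG values lay above every Control value in 15 genes (11.4% of all tested genes) and below every one in 4 (23.2% of all tested genes), and the groups overlapped in 23. Each gene was read here on its brightest kept probe, and other probes are described below. Since the list was proposed from the same contrast, nothing is read from these shares. The counts moved with the scaling and the arrays used. Quantile scaling called 28 members higher and 2 lower, and spike-in scaling called 35 higher and 0 lower by limma. Of the calls over all genes, 65.6% were lower on the 75th percentile scale, 59.0% with quantile scaling and 7.52% with spike-in scaling. With the slide column as a block 11 members were called, and without DTG array 2 also 11. Set against the all-gene median, the members had a median difference of 0.32 on all arrays, 0.40 within the arrays of high Xist and 0.19 within those of low Xist. In the low Xist arrays 13 members with a difference above 0 in the full set lay below 0, among them 5 of the 7 alpha subunits. All 42 genes were above background on every array where they had an unflagged spot, and none was saturated.

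**Figure D1:**
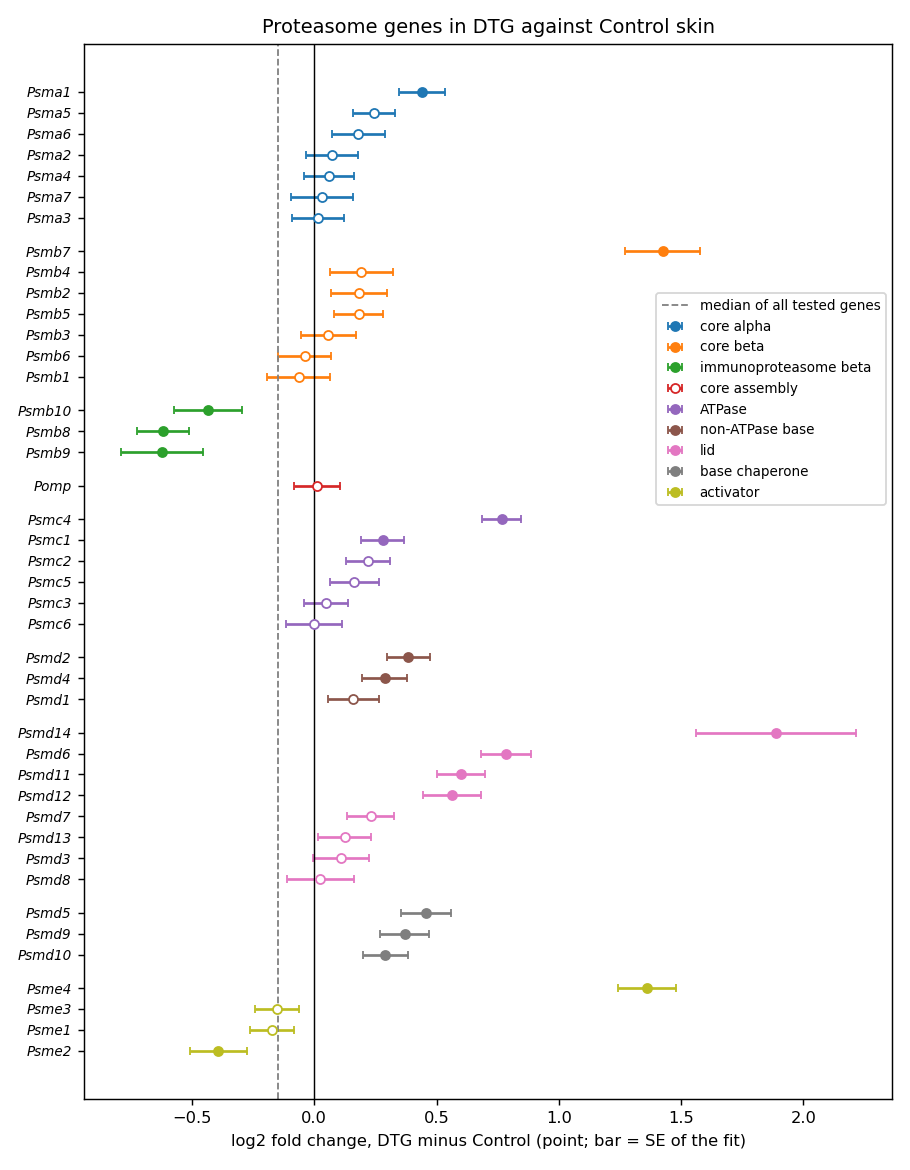
The horizontal axis gives the difference in log2 signal, DTG minus Control (4 arrays each, 3 where a spot was left out), for each of the 42 proteasome genes, grouped by role. Points are fitted values, bars are SE of the limma fit, filled points are called, and the dashed line is the median of all tested genes at -0.15. The 3 immunoproteasome genes lie left of the dashed line, and Psmd14, Psmb7 and Psme4 lie farthest right.

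The 7 alpha subunits, which form the outer rings and the gate of the core, had a median difference of 0.07. All 7 values lay between 0.02 and 0.44, and 1 was called higher (11.1% of all tested genes). Psma1 read 3.55, 3.43, 3.39 and 3.43 on DTG arrays 1 to 4, against 3.10, 2.87, 3.12 and 2.94 on Control arrays 1 to 4. Every DTG array was above every Control array, and Psma1 rose by 0.44 ± 0.09 (SE; limma adjusted p = 0.00918), or 1.36-fold. Psma5 read 3.59, 3.60, 3.63 and 3.63 on DTG arrays, against 3.50, 3.28, 3.43 and 3.27 on Control arrays. Its groups did not overlap either, but the difference of 0.24 was not called (limma adjusted p = 0.0585). At the other end, Psma3 read 3.57, 3.61, 3.65 and 3.71 on DTG arrays, against 3.87, 3.48, 3.59 and 3.55 on Control arrays. Control array 1 held its highest value, the groups overlapped, and the difference was 0.02. The others, Psma2 (0.07), Psma4 (0.06, without DTG array 1), Psma6 (0.18) and Psma7 (0.03), were not called.

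The 7 constitutive beta subunits had a median difference of 0.18, with 1 called higher (11.1% of all tested genes). That 1 was Psmb7, which carries the trypsin-like active site. Psmb7 read 1.76, 2.17, 2.02 and 2.07 on DTG arrays, against 0.96, 0.44, 0.32 and 0.60 on Control arrays. The lowest DTG array exceeded the highest Control array, and the gene rose by 1.42 ± 0.15 (SE; limma adjusted p = 0.000523), or 2.68-fold. The other catalytic subunits differed much less. Psmb5, the chymotrypsin-like subunit, read 4.03, 3.88, 3.94 and 3.87 on DTG arrays, against 3.92, 3.61, 3.82 and 3.64 on Control arrays. Its groups overlapped through Control array 1, and the difference was 0.18 (limma adjusted p = 0.19). Psmb6, the caspase-like subunit, read 4.03, 3.84, 3.85 and 3.99 on DTG arrays, against 4.15, 3.78, 4.05 and 3.88 on Control arrays. These groups were interleaved, with a difference of -0.04 (limma adjusted p = 0.797). Psmb4, a structural subunit, read 4.76, 4.39, 4.46 and 4.50 on DTG arrays, against 4.61, 4.20, 4.33 and 4.19 on Control arrays. Array 1 was the highest of both groups, and the difference of 0.19 was not called. Psmb1 (-0.06), Psmb2 (0.18) and Psmb3 (0.06) were not called. Pomp, the chaperone needed to assemble both core forms, read 3.59, 3.45, 3.51 and 3.51 on DTG arrays, against 3.63, 3.43, 3.59 and 3.37 on Control arrays, a difference of 0.01 within the spread of either group. A dimmer probe of Pomp differed by 0.64, without overlap.

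All 3 immunoproteasome subunits fell in DTG skin, each below every Control array. Of all tested genes, 21.3% were called lower and 23.2% lay below every Control value. Psmb8 and Psmb9 lie in the MHC class II region of chromosome 17 and Psmb10 on chromosome 8. The 120 bases before each start are shown because interferon-gamma is known to induce these genes. They are RefSeq sequences of GRCm38.p6, written 5′ to 3′ on the gene's strand, at chr17:34198075-34198194 (plus) for Psmb8, chr17:34187331-34187450 (minus) for Psmb9 and chr8:105938393-105938512 (minus) for Psmb10. Capitals mark a match to TTCNNNGAA, the core of a gamma-activated site, an element of interferon-gamma responses.
Psmb8: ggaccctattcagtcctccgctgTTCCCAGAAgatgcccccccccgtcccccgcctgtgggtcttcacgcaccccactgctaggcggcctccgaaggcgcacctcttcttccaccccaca
Psmb9: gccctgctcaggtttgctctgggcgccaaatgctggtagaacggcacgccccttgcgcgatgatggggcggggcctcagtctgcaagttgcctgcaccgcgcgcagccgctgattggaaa
Psmb10: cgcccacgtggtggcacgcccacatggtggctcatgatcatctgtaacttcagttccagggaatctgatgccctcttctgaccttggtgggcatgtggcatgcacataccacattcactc
The 250 bases before the start were searched on both strands in the 36 members with a RefSeq promoter entry. TTCNNNGAA occurred in 1 of them, Psmb8, and in 8.13% of 27025 genes with an entry. It reads the same on both strands. The core of an interferon-stimulated response element, GAAA and GAAA with any 2 bases between them, occurred in 3 (Psmb3, Psmd4 and Psmd9), or 8.33%, beside 3.46% of all genes. A match describes the letters only.

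Psmb8 read 2.22, 1.83, 2.04 and 2.08 on DTG arrays, against 2.66, 2.79, 2.58 and 2.62 on Control arrays. It was lowest on DTG array 2 and highest on Control array 2, and it fell by 0.62 ± 0.11 on the log2 scale (SE; limma adjusted p = 0.00381), a 1.53-fold lower signal. Psmb9 read 1.59, 1.29, 1.90 and 1.81 on DTG arrays, against 2.04, 2.59, 2.17 and 2.29 on Control arrays. The gap between DTG array 3 and Control array 1 was small, and Psmb9 fell by 0.62 ± 0.17 on the log2 scale (SE; limma adjusted p = 0.0227). Psmb10 read 2.74, 2.30, 2.76 and 2.67 on DTG arrays, against 2.93, 3.33, 2.99 and 2.95 on Control arrays. Control array 2 stood above the others, and Psmb10 fell by 0.44 ± 0.14 on the log2 scale (SE; limma adjusted p = 0.044). The call on Psmb10 was lost whichever single array was left out (adjusted p between 0.0515 and 0.0955), and that on Psmb9 was lost without DTG array 1, DTG array 2 or Control array 2 (adjusted p between 0.0508 and 0.0522). With the slide column as a block, Psmb8 kept its call (limma adjusted p = 0.024), while Psmb9 (0.0686) and Psmb10 (0.12) lost theirs. Within columns 1 to 4, DTG minus Control was -0.44, -0.96, -0.54 and -0.54 for Psmb8. It was -0.45, -1.30, -0.26 and -0.48 for Psmb9, and -0.19, -1.04, -0.22 and -0.29 for Psmb10. Column 2 held the widest gap in all 3 genes. In whole skin, fewer cells of a type and less RNA per cell cannot be told apart.

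The difference depended on how the arrays were scaled. On the spike-in scale, where the median of all genes was 0.32, Psmb8 differed by -0.15, Psmb9 by -0.16 and Psmb10 by 0.03, and none was called. Quantile scaling gave -0.55, -0.57 and -0.36. In each of the 5 scalings tried the 3 genes stayed below the median of all genes. Within the arrays of high Xist (3 DTG and 2 Control), the differences were -0.59, -0.67 and -0.42. Within those of low Xist (1 DTG and 2 Control) they were -0.78, -0.82 and -0.66, so the direction was the same in both classes.

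**Figure D2:**
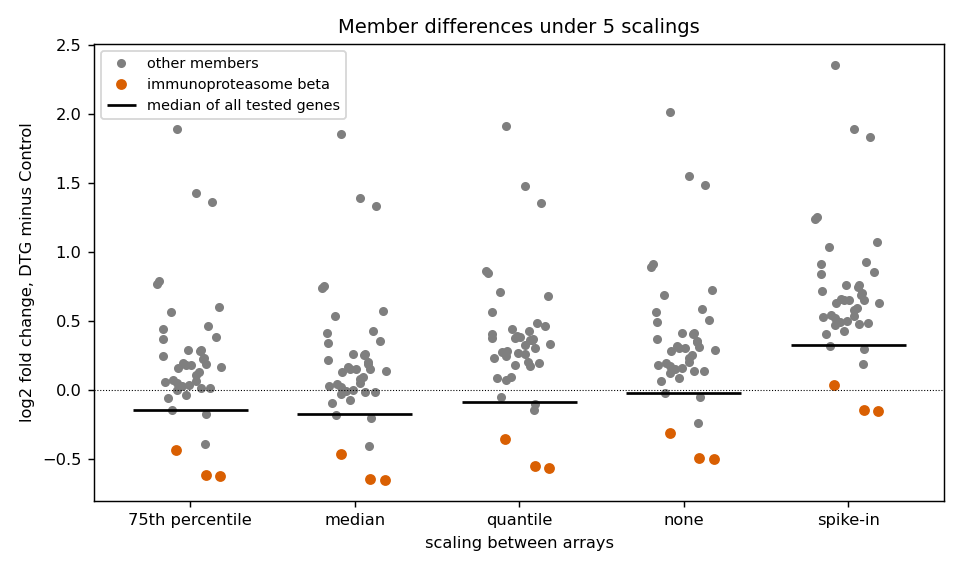
The vertical axis gives the difference in log2 signal, DTG minus Control, of every member (points, spread sideways for clarity) under 5 scalings of the same arrays. Bars mark the median of all tested genes, which was -0.15 on the 75th percentile scale and 0.32 on the spike-in scale, and the orange immunoproteasome genes lie below that bar in all 5.

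Setting each immunoproteasome subunit against the constitutive subunit it replaces, within the same array, removes any shift that an array's genes share. The level of such a difference depends on the probes, so only its change between groups is read. That change can depend on the probe too. Psmb5 differed by 0.18 between groups on its brighter probe and by 0.36 on its dimmer one. Psmb7 was read by 1 probe, with a Control mean of 0.58. Psmb8 minus Psmb5 was -1.80, -2.04, -1.90 and -1.79 on DTG arrays, against -1.26, -0.82, -1.24 and -1.02 on Control arrays. The groups did not overlap, and the means differed by -0.80. Psmb9 minus Psmb6 averaged -2.28 ± 0.27 on DTG arrays and -1.69 ± 0.39 on Control arrays (SD, n = 4 each). Here DTG array 3 lay within the range of the Control arrays, and the means differed by -0.58. Psmb10 minus Psmb7 was 0.98, 0.13, 0.74 and 0.59 on DTG arrays, against 1.97, 2.90, 2.66 and 2.35 on Control arrays. This pair changed most, by -1.86, through both genes: Psmb10 fell and Psmb7 rose. Of the 3 pairs, 2 were separated between the groups without overlap. For Psmb10 minus Psmb7 this had to follow, since Psmb10 lay below and Psmb7 above every Control array in DTG skin. Psmb8 was also separated without Psmb5. The share of other gene pairs so separated was not tested, so nothing is read from this count.

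**Figure D3:**
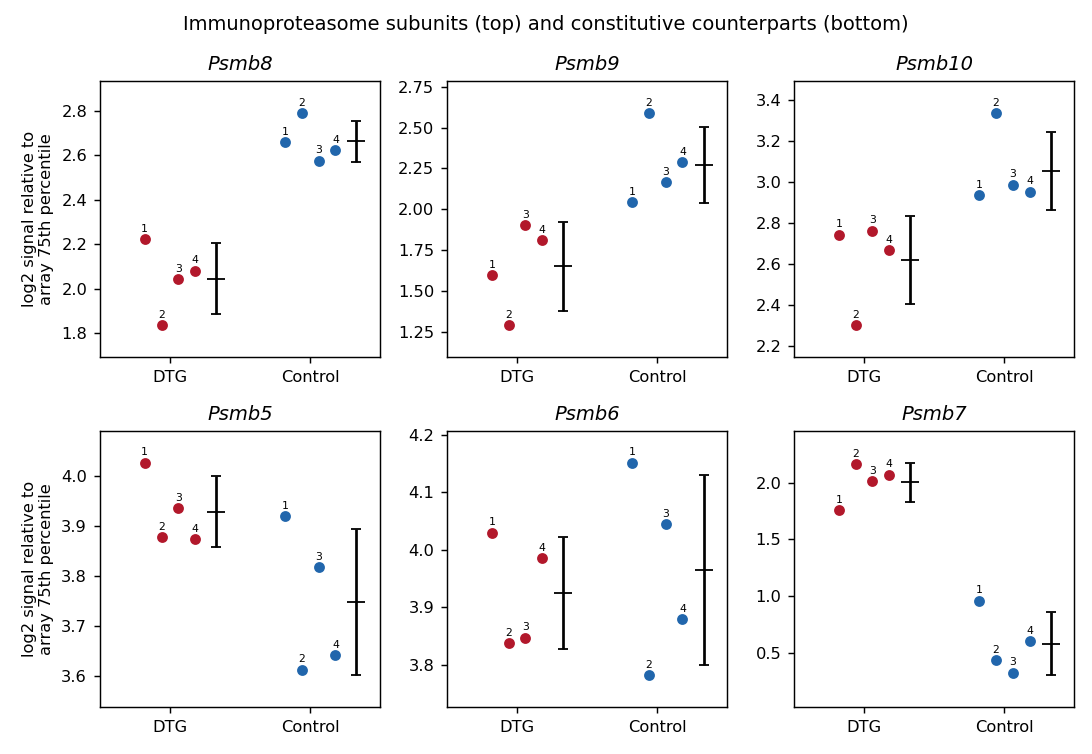
The vertical axes give log2 signal relative to the 75th percentile of the array for the immunoproteasome and constitutive subunits, with 4 DTG arrays left of 4 Control arrays in each panel. Points are arrays, and lines with bars are means ± SD. The immunoproteasome genes lie lower in DTG with no overlap, Psmb7 lies higher, and Psmb5 and Psmb6 overlap.

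The activators dock on the core in place of the regulatory particle. Psme1 and Psme2 form the interferon-inducible ring, Psme3 forms a nuclear ring, and Psme4 is a large nuclear activator that acts in DNA repair and sperm development. Psme4 read -0.10, 0.03, -0.10 and -0.01 on DTG arrays, against -1.13, -1.66, -1.37 and -1.47 on Control arrays. The 4 DTG arrays lay within a narrow band far above the Control arrays, and Psme4 rose by 1.36 ± 0.12 (SE; limma adjusted p = 0.000218), or 2.57-fold. Psme2 read 3.55, 3.66 and 3.49 on DTG arrays 2 to 4, against 4.04, 3.82 and 4.01 on Control arrays 1 to 3, since its spots on DTG array 1 and Control array 4 were flagged as outliers. With 3 arrays left in each group, Psme2 fell by 0.39 ± 0.12 on the log2 scale (limma SE and adjusted p = 0.0433). That call was lost without DTG array 2, 3 or 4 or Control array 1 or 3 (adjusted p between 0.0606 and 0.123), with the slide column as a block (adjusted p = 0.229), and with the flagged spots kept (-0.29, adjusted p = 0.0764). Its partner Psme1 read 2.70, 2.61, 2.83 and 2.79 on DTG arrays, against 2.96, 2.93, 2.96 and 2.78 on Control arrays. Only Control array 4 lay within the DTG range, and the difference of -0.17 was not called (limma adjusted p = 0.168). Psme1 had up to 10 spots an array, whose SD was 0.02 to 0.05 log2 units. Psme3 read 2.996, 2.93, 2.93 and 2.94 on DTG arrays, against 3.25, 2.97, 3.14 and 3.03 on Control arrays, a difference of -0.15 that was not called and equals the median of all genes.

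The regulatory particle has 17 subunits on the list, of which 8 were called higher and none lower by limma (no fall at an unadjusted p below 0.05 either), with a median difference of 0.23. Of all tested genes, 11.1% were called higher and 21.3% lower. Of the 14 constitutive core subunits 2 were called higher and none lower, with a median of 0.13. Among the 6 ATPases, which unfold the substrate, Psmc4 read 3.27, 3.24, 3.16 and 3.26 on DTG arrays, against 2.44, 2.42, 2.55 and 2.46 on Control arrays. Both groups were tight and far apart, and Psmc4 rose by 0.77 ± 0.08 (SE; limma adjusted p = 0.000398), or 1.70-fold. Psmc1 read 3.56, 3.52, 3.57 and 3.57 on DTG arrays, against 3.41, 3.19, 3.36 and 3.16 on Control arrays. It rose by 0.28 ± 0.09 (SE; limma adjusted p = 0.0417), a call kept only without Control array 1 among the 8 arrays left out in turn (adjusted p otherwise 0.0677 to 0.0941). Psmc6 read 2.78, 2.54, 2.42 and 2.51 on DTG arrays, against 2.72, 2.42, 2.64 and 2.47 on Control arrays. Its groups were interleaved, and the means differed by less than 0.01. Psmc2 (0.22), Psmc3 (0.05) and Psmc5 (0.16) were not called.

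The lid lifts ubiquitin chains off the substrate. Of its 8 genes on the list 4 were called higher (11.1% of all tested genes), with a median difference of 0.40. Sem1, a further subunit tested outside the list, differed by -0.21 and was not called (limma adjusted p = 0.179). Psmd14 encodes the deubiquitinase of the lid. It read 2.26, 2.03, 0.93 and 1.52 on DTG arrays, against -0.56, -0.43, -0.33 and 0.51 on Control arrays. Arrays within each group were far apart, with DTG array 3 and Control array 4 nearest to each other, yet the groups did not overlap. Psmd14 rose by 1.89 ± 0.33 (SE; limma adjusted p = 0.004), or 3.70-fold. Psmd6, a scaffold subunit, read 2.33, 2.55, 2.26 and 2.58 on DTG arrays, against 1.60, 1.65, 1.60 and 1.73 on Control arrays. The separation was complete, and Psmd6 rose by 0.78 ± 0.10 (SE; limma adjusted p = 0.00118). The scaffold subunits Psmd11 and Psmd12 rose by 0.60 and 0.56. Psmd8 read 2.20, 2.15, 1.89 and 2.08 on DTG arrays, against 1.71, 2.12, 2.27 and 2.13 on Control arrays. It showed no order between the groups, with a difference of 0.02. Psmd3 (0.11), Psmd7 (0.23) and Psmd13 (0.12) were not called.

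In the rest of the base, Psmd2, a large scaffold, rose by 0.38, and Psmd4, a ubiquitin receptor, rose by 0.29. Psmd1, the partner scaffold, differed by 0.16 and was not called. The 3 base chaperones hold the ATPases during assembly and leave before the particle is complete. All 3 were called higher, where 11.1% of all tested genes were. Psmd5 rose by 0.46, Psmd9 by 0.37 and Psmd10 by 0.29. The smaller of these calls were not stable to single arrays. Psmd10 was lost whichever array was left out (adjusted p between 0.0549 and 0.0974). Psmd4 was lost without any array but Control array 1 (0.0609 to 0.0963), and Psmd9 without array 1 or 2 of either group (0.0503 to 0.0617). Of the 18 called proteasome genes, 11 kept their call whichever array was left out, and 7 did not. The slide column as a block ended the calls on the same 7, among them Psmc1 (adjusted p = 0.0877), Psmd4 (0.0697), Psmd9 (0.0709) and Psmd10 (0.0803).

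**Figure D4:**
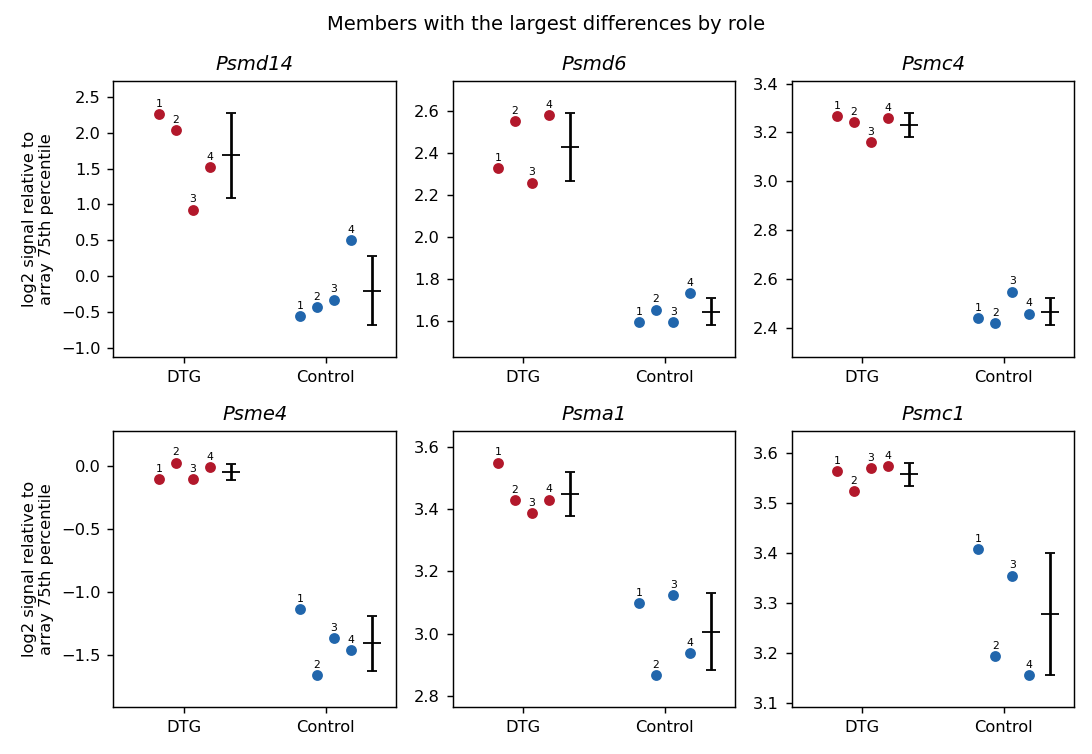
Each panel gives the log2 signal relative to the 75th percentile of the array for a proteasome gene, with 4 DTG arrays left of 4 Control arrays, numbered, and the mean ± SD beside them. Axes differ between panels and do not start at 0. Psmd14 spreads over more than a log2 unit within each group, while Psmc4 and Psme4 (brighter probe) are tight. No panel shows an overlap, but the genes shown were picked for large differences. The groups overlapped in 23 of the 42 members.

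Most members had bright probes. Of the 35 members with a mean level of 2 or more, 8 were called higher and 3 lower, with a median difference of 0.12. Among all 3269 genes at or above that level, 5.60% were called higher and 17.2% lower, with a median of -0.14. Spearman's rho between level and difference was -0.36 over the 42 members, and 0.14 over all tested genes. These are correlations across genes on shared arrays, and probe brightness also depends on the probe.

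For 10 members another probe also passed the filter. The 2 probes gave the same sign in all 10, beside 70.2% of 3800 named genes with 2 kept probes. The dimmer probe gave the more positive difference in 9 of the 10, beside 58.1% of those genes. Pomp differed by 0.01 on its brighter probe and by 0.64 on its dimmer one. For Psma4 the values were 0.06 and 0.45, for Psmd9 0.37 and 1.17, and for Psmb5 0.18 and 0.36. On the dimmer probes of Pomp, Psma4, Psmb5, Psmc2 and Psmc3 the DTG arrays lay above every Control array read, for Psmc3 narrowly. The groups overlapped on their brighter probes. So the size of the difference, and whether the groups overlapped, depended on the probe in these genes. The brighter probe stands for the gene throughout. Psme4 was the exception, with 1.36 on its brighter probe and 0.43 on its dimmer one, whose groups overlapped. The 2 probes of Psme2 gave -0.39 and -0.23. Which transcript regions the probes cover was not tested.

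**Figure D5:**
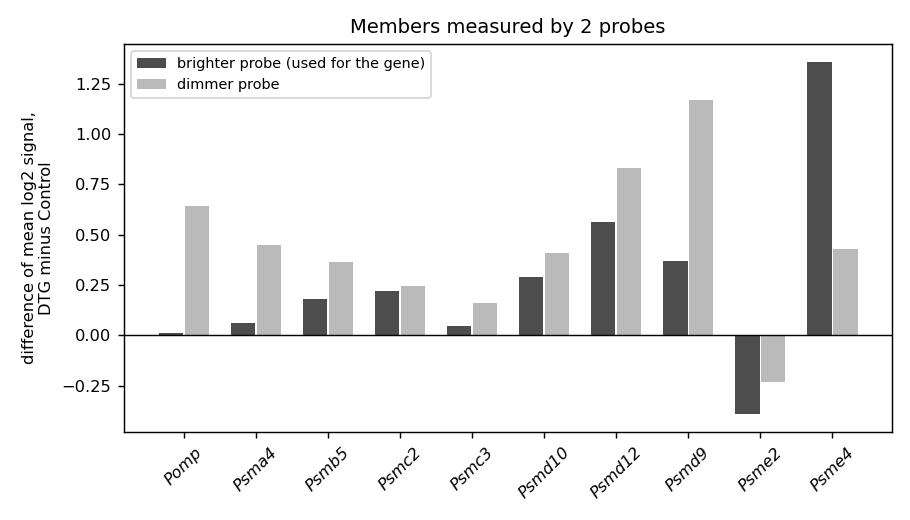
Paired bars give the difference of mean log2 signal, DTG minus Control, for the brighter and the dimmer probe of each of the 10 members with 2 probes that passed the filter. Both bars point the same way in every gene, and the dimmer probe has the higher value in all but Psme4.

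NRF1 and its helpers regulate the constitutive subunits. Of 7 genes on that list 3 were called higher (11.1% of all tested genes) and 1 lower (21.3% of all tested genes). Nfe2l1, the gene for NRF1, rose by 0.55 ± 0.11 (SE; limma adjusted p = 0.00598). It read -0.67, -0.55, -0.72 and -0.78 on DTG arrays, against -1.44, -1.22, -1.05 and -1.22 on Control arrays, without overlap. Ddi2, the protease that cuts NRF1 into its active form, rose by 0.50, and Maff, a small MAF protein that can pair with it, rose by 0.84. Ngly1, the glycanase that NRF1 also needs, fell by 0.67 on the log2 scale. It read only -4.98 to -4.38 on DTG arrays. The lowest level above background was -5.51 to -5.25 on DTG arrays and -7.24 to -6.52 on Control arrays. The part of background in the fall of Ngly1 was not tested. Nfe2l2 (0.23), Mafg (0.24) and Mafk (0.28) were not called. The core of the antioxidant response element that such dimers bind, TGACNNNGC, occurred in 5 of the 36 members with a promoter entry, or 13.9%, beside 11.5% of all genes. The CCAAT box, letters CCAAT, occurred in 36.1% of these members and in 37.5% of all genes.

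The 5 members with a match to TGACNNNGC are shown with 50 bases each, the match in capitals. They lie at chr14:54618013-54618062 (minus) for Psmb5, chr11:70525307-70525356 (plus) for Psmb6, chr14:45329577-45329626 (plus) for Psmc6, chr5:123228139-123228188 (plus) for Psmd9 and chr11:107479278-107479327 (plus) for Psmd12. In Psmc6 and Psmd12 the match is on the opposite strand.
Psmb5: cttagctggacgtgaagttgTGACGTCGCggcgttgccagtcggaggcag
Psmb6: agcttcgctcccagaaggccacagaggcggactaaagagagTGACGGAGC
Psmc6: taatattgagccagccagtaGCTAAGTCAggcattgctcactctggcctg
Psmd9: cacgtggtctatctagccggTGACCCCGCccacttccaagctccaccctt
Psmd12: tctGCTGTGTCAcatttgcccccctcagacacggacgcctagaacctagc
Of these 5 genes Psmd9 and Psmd12 were called higher, and Psmb5, Psmb6 and Psmc6 were not called. Of all 42 members 14 were called higher, beside 11.1% of all tested genes, so nothing about the match is read from this count. Psmc6 and Psmb6 were among the members with the smallest differences.

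Over 7 lists of other genes of the pathway, 47 of 50 genes were tested, of which 6 were called higher and 6 lower, beside 11.1% and 21.3% of all tested genes. Of 6 further subunits and bound factors, Adrm1, a ubiquitin receptor, rose by 0.46, and Usp14, a deubiquitinase of the particle, rose by 0.33. Psmf1, an inhibitor of the core, differed by 1.12 but was not called (limma adjusted p = 0.0627). Of the 4 tested chaperones that assemble the core, Psmg2 fell by 0.41 and Psmg3 by 0.72 on the log2 scale, while Psmg1 (-0.19) and Psmg4 (-0.01) were not called.

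Among 6 ubiquitin genes and activating enzymes, Rps27a, a fusion of ubiquitin to a ribosomal protein, fell by 0.35 on the log2 scale. The polyubiquitin gene Ubb (-0.03) was not called. Of 10 genes for shuttles and p97, Rad23b, which carries ubiquitin chains to the particle, rose by 0.59, and Faf1, a p97 cofactor, fell by 0.42 on the log2 scale. Vcp, which encodes p97 itself, differed by 0.30 and was not called. Of 8 genes for loading MHC class I, the peptide transporter gene Tap2 fell by 0.42 on the log2 scale, and B2m differed by -0.24 without a call (limma adjusted p = 0.0536). None of 6 genes for interferon signalling was called by limma, and 2 had an unadjusted p below 0.05. Irf1, an interferon-induced transcription factor, differed by -0.06.

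T cell markers were lower in the same DTG arrays as the immunoproteasome genes. Of 5 listed markers 4 were tested and 3 fell, beside 21.3% of all tested genes: Cd3d by 0.72, Cd3e by 0.74 and Cd3g by 0.81 on the log2 scale. Their summed linear signal, in units of the 75th percentile, was 3.05 to 4.03 on DTG arrays and 5.54 to 6.59 on Control arrays. The ranges did not overlap. Cd247 differed by -0.39 and was not called. Macrophage and dendritic markers summed to 16.0 to 21.2 on DTG arrays and 19.6 to 24.2 on Control arrays, with none of 4 called by limma (1 at an unadjusted p below 0.05). Neutrophil markers summed to 45.8 to 53.2 and 43.6 to 65.2, with none of 3 called (1 at an unadjusted p below 0.05), and the pan-leukocyte gene Ptprc differed by 0.34 without a call. All tested markers of these types were above background on every array, except Cd247 on 1 DTG array. The part of these cells in the lower immunoproteasome signal was not tested.

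Among markers of the skin's own cell types every call was lower, and the few differences above 0 were not called. Of 5 keratinocyte markers 3 fell, beside 21.3% of all tested genes. Krt5 fell by 0.59, Krt1 by 0.72 and Krt10 by 0.44 on the log2 scale. Their summed signal was 75.6 to 93.2 on DTG arrays and 96.1 to 129 on Control arrays. Fibroblast markers summed to 68.1 to 84.7 and 79.1 to 114, with Dcn called lower among 4 and Pdgfra at 0.36 without a call, and adipocyte markers to 34.7 to 37.9 and 45.9 to 50.3, with all 3 called lower (without Control array 4, where a spot of Adipoq was left out). Skeletal muscle markers summed to 46.1 to 49.6 and 50.9 to 59.2, with none of 3 called by limma (1 at an unadjusted p below 0.05), and neither endothelial marker, Pecam1 at 0.80 or Cdh5 at 0.09, was called (none at an unadjusted p below 0.05). The part of these cell types in the proteasome differences was not tested.

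Within a group, arrays ranked alike over many members. The same ranks were not counted over all tested genes, so nothing particular to the proteasome is read from them. Of the 37 members outside the immunoproteasome that were read on all arrays, DTG array 1 was the highest of its group in 26 and Control array 1 in 24. DTG arrays 2 and 3 were the lowest of their group in 15 and 14, and Control arrays 2 and 4 in 15 and 16. DTG array 2 was also the lowest of its group in all 3 immunoproteasome genes. Among the Control arrays the immunoproteasome genes ran differently: Control array 2 was the highest of its group in all 3. DTG array 2 and Control array 2 share a slide column and fall in opposite Xist classes.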

How the data were processed

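Total RNA of whole skin was extracted with TRIzol, amplified and labelled with Cy3, per the labels' protocols. The deposited scanner tables hold spot intensity on a linear scale, background-corrected by Agilent's Feature Extraction software. Per the file headers its release was 11.5.1.1, where the submitters' processing notes name 10.7. The tables also hold flags for outlier and above-background spots, other columns deposited by the authors. Files name build mm9, per the file headers, and no coordinates of theirs were used. The authors' deposited series-wide intensity values for 43861 probes, which matched the scanner signal in 99.7% of cases (relative tolerance 0.001), served as an alternative. Those values are linear and not scaled between arrays.

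Groups come from the tissue label, and replicate numbers are only names in deposit order, which equal the slide column in both groups. Accessions were matched without versions to RefSeq (GRCm38.p6), which named 26762 of 55681 probes (48.1%) and 20284 genes. Outlier-flagged spots (0.55% of probe values) were left out, spots of a probe averaged, and log2 signals taken relative to the 75th percentile of each array. A probe was kept where 3 or more of the 4 arrays in either group read it above background, and the brightest kept probe stood for its gene. The DTG to Control difference was tested two-sided with lmFit and eBayes of limma 3.58.1 (R 4.3.3, and data.table, version 1.17.8) and adjusted by Benjamini-Hochberg over all genes, and the procedure was tested on simulated data. The number of arrays limits the precision.

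Alternatives were other scalings, normexp with an offset of 50, other filters and probe rules, slide column, Xist class and single arrays left out. Between arrays, correlation over genes was 0.984 to 0.990 within DTG, 0.981 to 0.992 within Control and 0.960 to 0.978 between groups, and no arrays held the same values. The members and gene lists were chosen with earlier results of these data known. The named genes follow a rule: all members, with values by array for catalytic, immunoproteasome, activator and assembly genes and for the 2 largest and the smallest differences of each main role, and up to 4 called genes of each other list. A few genes of the other lists are not reported here.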

Additional observations from a re-analysis of the deposited data

Results flagged for a closer look

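In 81 groups of 4 arrays, 5 members had an array far from the other 3 of its group, where chance gives about 1 in 20 groups. The gap to the nearest array, over the range of the group, passed Dixon's critical value for 4 samples in each. DTG array 1 was highest in Psma2 (4.02, nearest 3.84), in Psmb1 (3.61, nearest 3.33) and in Psme3 (2.996, nearest 2.94). Control array 2 was highest in Psmb10 (3.33, nearest 2.99), and Control array 4 was lowest in Psmd2 (1.94, nearest 2.07). Of these genes Psmb10 was called lower and Psmd2 higher. Without Control array 2 the difference of Psmb10 was -0.34 (limma adjusted p = 0.0949).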

How the results depend on the processing

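The labels hold no replicate numbers that pair samples, so the only block was the slide column, which arrays of the same number share. Spike-in scaling called 35 members, 35 higher and 0 lower by limma, and 25 pathway genes, with Psmb1 at 0.40, Psmb10 0.032, Psmb6 0.43, Psmc6 0.46, Psme1 0.29, Psme2 0.18 and Psme3 0.32. Of all calls, 65.6% were lower on the 75th percentile scale, 59.0% with quantile scaling, 41.7% with none and 7.52% with spike-in scaling. Quantile scaling called 30 members (28 higher, 2 lower), with a median relative to all genes of 0.41, Psmb1 at 0.084, Psmb6 0.18 and Psmc6 0.067. No scaling called 3830 of all genes and 1 member lower, with Psmb1 at 0.060, Psmb6 0.084 and Psmc6 0.12. Median scaling gave Pomp -0.020, Psma3 -0.017 and Psmd8 -0.0068. Normexp and no filter each gave a relative median of 0.28. Psmc6 was 0.021 with normexp, 0.024 with the authors' table, 0.0077 with outlier spots kept and 0.028 with Xist class as a covariate. Slide column as a block called 11 members, 1 lower. High Xist arrays alone called 2595 genes, 9 members (7 higher, 2 lower) and 6 pathway genes, with a relative median of 0.40, Psmb1 at 0.13, Psmb6 0.12, Psmc6 0.13 and Psmd8 -0.067. Low Xist arrays alone (1 DTG, 2 Control, the lone array taken to vary like the Control arrays) called 249 genes, 1 member, higher, and 0 lower and 0 pathway genes, with a relative median of 0.19, Pomp -0.16, Psma2 -0.10, Psma3 -0.12, Psma4 -0.066, Psma6 -0.028, Psma7 -0.14, Psmb3 -0.23, Psmb4 -0.082, Psmc3 -0.10, Psmc5 -0.0053, Psmd1 -0.045, Psmd13 -0.12 and Psmd3 -0.14. With each array left out in turn, 4063 to 5161 genes, 11 to 16 members (10 to 14 higher, 1 to 3 lower) and 9 to 14 pathway genes were called, with a relative median of 0.27 to 0.36. The 11 came without DTG array 2. Then Pomp ran over -0.035 to 0.054, Psma3 -0.033 to 0.10, Psma7 -0.055 to 0.13, Psmb1 -0.14 to 0.0062, Psmb3 -0.0094 to 0.12, Psmb6 -0.10 to 0.023, Psmc6 -0.076 to 0.051 and Psmd8 -0.090 to 0.095. Fewer arrays enter the last 3 settings. Otherwise the cause was not tested. All members were above background where they had an unflagged spot, but the part of background in their differences was not tested.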
